A study of Papio anubis with 40 samples.

Results

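Long tRNA fragments without the mature 3′ end were examined in baboon serum. A fragment was a member when its sequence was 37 to 89 nt long and did not end in the bases CCA. By this rule 5890 of 58587 fragments were members, and they held 81964 of 130892201 counts (0.0626%). Another 2160 fragments of at least 37 nt ended in CCA and were not members. The rule used length and the last bases only, so month was not part of it. At its lower edge, 717 fragments of 37 nt (13145 counts) were just inside and 1076 fragments of 36 nt without a CCA end (27769 counts) were just outside.

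The serum came from 8 olive baboons (Papio anubis) with induced endometriosis, in which menstrual tissue had been placed in the peritoneal cavity at laparoscopy. Each animal was bled before the procedure (month 0) and 3, 6, 9 and 15 months after it, and 0.5 mL of serum was used per draw, giving 40 libraries. The labels list no drug or other treatment for any sample. Every animal was inoculated, so time since induction and age cannot be told apart, and the baseline of each animal was its own month 0 draw. The question was which long fragments circulate and whether they differ from month 0.

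Transfer RNAs carry amino acids to the ribosome. They fold into a cloverleaf whose anticodon loop reads the codon and whose T-arm, near the 3′ side, holds a loop that begins with the bases TTCGA or TTCAA in most nuclear tRNAs. The mature 3′ end is the added trinucleotide CCA, to which the amino acid is attached. Nucleases such as angiogenin cut in the anticodon loop and leave pieces shorter than most fragments described here. Such 5′ pieces, of glycine and glutamate tRNAs above all, are known in serum. Members either begin near the 5′ end and run into or past the anticodon loop, or begin further inside the tRNA. Mitochondria make their own shorter tRNAs.

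Depth differed widely. Library totals ran from 198840 to 6245450 counts, with a median of 3269163. A library held 102 to 6140 member counts, the lowest in PA8001 at month 0 and the highest in PA8001 at month 15. A count of 0 in the former allows up to 3 counts, which is 15.1 CPM (library counts scaled to a common total of 1e6), or 7.82 after scaling, and where a lowest value at month 0 below is 0, that library is among those at 0. Of the members, 3359 were counted once in all libraries together, 3848 occurred in 1 library only and 7 occurred in all 40. In cell-free serum, fewer fragments of a kind and a larger amount of all other fragments cannot be told apart. Levels below are scaled CPM, that is CPM after the TMM scaling also used in the tests, unless they are called shares. TMM factors ran from 0.458 (PA8003, month 15) to 1.93 (PA8001, month 0).

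The leading 5′ fragments are shown first because many of their counts end at the same place. Each line gives the fragment ID, whose first number is the length, then the sequence from 5′ to 3′ with the anticodon as read in capitals.
tRF-50-1OR6QO004MR1J5KUB4Z3: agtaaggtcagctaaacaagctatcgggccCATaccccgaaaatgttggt
tRF-52-Q1Q89P9L8422YRI7XUK8N: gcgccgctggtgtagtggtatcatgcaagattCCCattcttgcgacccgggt
tRF-52-PNR8YP9LON4VN1EH6KK8N: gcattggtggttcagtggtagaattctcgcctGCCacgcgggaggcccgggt
tRF-54-79MP9PMNH57S362VO0SR1Z: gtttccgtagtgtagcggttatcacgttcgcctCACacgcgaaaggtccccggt
tRF-54-79MP9P9NH57S3U2VO0SR1Z: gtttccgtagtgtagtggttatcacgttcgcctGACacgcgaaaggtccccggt
tRF-56-PSQP4PW3FJIKE7UMKKSWRND: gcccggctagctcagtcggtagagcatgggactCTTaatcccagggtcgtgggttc
tRF-53-PS5U8918W8RV1I8B3WFY03: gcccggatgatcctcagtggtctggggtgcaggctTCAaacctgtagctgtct

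In order these belong to mitochondrial Met-CAT, Gly-CCC, Gly-GCC, Val-CAC, Val-AAC, Lys-CTT and Sec-TCA, the tRNA that inserts selenocysteine. Counted from the first base, the Val fragments differ by C16T and C34G. The first anticodon base of Val-AAC is converted to inosine in cells, which is read as G. Parent tRNAs were read from the anticodon loop of the fragments, and the mitochondrial names rest on the known sequences of those tRNAs, since no tRNA reference was used. Every member of a 4-character code (the first 4 characters after the second hyphen of the ID) shared its first 10 bases in 1138 of 1138 codes, so codes were used as groups.

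A few tRNAs made up most of the counts. Asp-GTC held 27.2% of member counts, mitochondrial Met-CAT 20.6%, Gly-CCC 11.98%, Val-AAC/CAC 8.80%, Lys-CTT 8.54% and Gly-GCC 7.68%. Val-TAC held 3.82% and Sec-TCA 3.74%, and for 3.64% no parent was read. The largest codes were 1OR6 (mitochondrial Met, 16676 counts), Q1Q8 (Gly-CCC, 9216), 79MP (Val, 7082), EH62 (Asp-GTC 3′ side, 6367), PSQP (Lys-CTT, 3582), PNR8 (Gly-GCC, 3246), 8HM2 (Asp-GTC 3′ side, 3029) and 2VR0 (Asp-GTC 3′ side, 2899). The 5′ codes of Glu-CTC (87R8, 445 counts) and Glu-TTC (86J8, 400 counts) were minor here. Code PYRP had 0 members, and FPR8 had 1 member with 1 count.

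**Figure D1:**
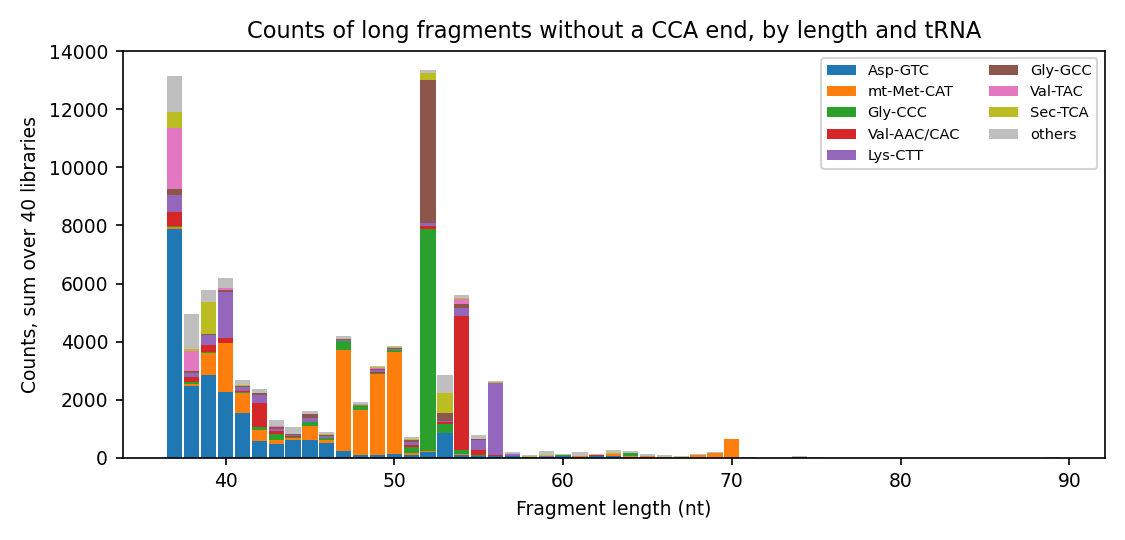
Counts of members summed over 40 libraries (vertical axis) by fragment length in nt (horizontal axis), stacked by parent tRNA, with the remaining tRNAs and unread parents as others. The tallest bars are 52 nt (13346 counts, mostly Gly-CCC and Gly-GCC) and 37 nt (13145 counts, mostly Asp-GTC).

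Counts were concentrated at a few lengths, each shared by several tRNAs. Fragments of 37 to 39 nt held 29.1% of member counts and those of 52 to 56 nt held 30.8%. Within the second band, 52 nt alone held 16.3%. Lengths of 57 to 69 nt held 2.56%, and 70 to 89 nt held 0.960%. By place, 63.3% of member counts began near the mature 5′ end and 36.7% began inside the tRNA. In Asp-GTC most counts began inside (20987, against 1270 near the 5′ end), and the same held for Val-TAC (2911 against 223) and Met-CAT (388 against 143).

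Many counts of 5′ members from nuclear tRNAs ended at the same place. Where the place of the T-loop could be read, which leaves out mitochondrial Met-CAT, 34722 counts began near the 5′ end, and 19087 of them (55.0%) ended exactly at the first base of the T-loop motif. These came from 501 of 2357 such members and were 23.3% of all member counts. In Gly-GCC this share was 86.9%, in Gly-CCC 79.4%, in Val-TAC 68.2%, in Val-AAC/CAC 64.4% and in Asp-GTC 63.5%. Each of the printed Gly and Val sequences ends at that base, although their lengths run from 52 to 54 nt. Lys-CTT differed, with 5.83% at that base and a commonest end 2 bases further on (42.7%). Sec-TCA and mitochondrial Leu-TAA ended there in 0.101% and 0% of their counts. The Sec-TCA counts most often ended 28 bases earlier (35.6%), in the anticodon loop. Glu-CTC counts ended almost equally often 16 bases earlier (22.6%) and at the T-loop base itself (22.2%). For a Glu-CTC fragment that begins at the first base, an end 16 bases earlier gives the shortest length the rule admits. Shorter pieces were left out, so the commonest end of Glu-CTC depends on the length rule.

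**Figure D2:**
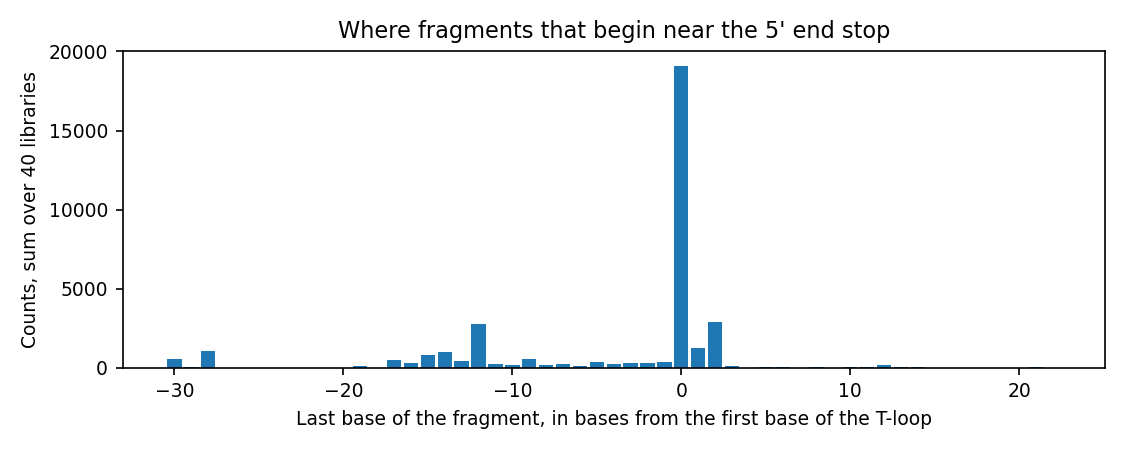
Last base of members that begin near the 5′ end, as the distance in bases from the first base of the T-loop (horizontal axis, 0 is that base), against counts summed over 40 libraries (vertical axis). The bar at 0 holds 19087 counts, and the next bars are at 2 (2911 counts) and at -12 (2757 counts).

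The share of 5′ counts that ended at that base varied between libraries. At month 0 it was lowest in PA8912 (40.9%), 59.7% at the median and highest in PA8872 (75.7%). At month 15 it was lowest in PA8915 (29.6%), 41.7% at the median and highest in PA8003 (73.2%). The ranges overlapped, and no test was made on this share.

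On the 3′ side, Asp-GTC fragments are shown with the part of the CCA tail that is left in capitals.
tRF-37-EH623K7SIR3DR2M: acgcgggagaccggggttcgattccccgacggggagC
tRF-37-2VR008R959KUMKH: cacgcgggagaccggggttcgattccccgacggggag
tRF-38-2VR008R959KUMK9: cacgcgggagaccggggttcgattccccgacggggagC
tRF-39-2VR008R959KUMKEV: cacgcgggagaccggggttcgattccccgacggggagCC
tRF-40-8HM2OSRNLNKSEK51: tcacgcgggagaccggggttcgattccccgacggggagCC
tRF-37-LPD3387SFRJ4O11: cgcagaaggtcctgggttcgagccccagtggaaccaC

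These are the same piece of Asp-GTC with a start 1 base apart and a tail cut to 2, 1 or 0 bases. The last line is the matching piece of Val-TAC. Members whose tail lacked 1 to 3 bases numbered 945 and held 21134 counts (25.8% of member counts), of which 16705 were Asp-GTC. The Asp-GTC members with a cut tail were pooled with the whole-CCA forms of the same pieces. Of these counts, 70.2% had the whole CCA, 11.9% lacked the last A, 15.6% lacked CA and 2.36% lacked all 3 bases. Cut forms under 37 nt were not in the pool, so the split depends on the length rule. In the libraries, the share with the whole CCA ran from 53.0% to 94.7% at month 0 (median 65.9%) and from 56.5% to 77.9% at month 15 (median 65.8%). Those ranges overlapped too.

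The 11 main start positions of the Asp-GTC 3′ side lay at bases 28 to 38 of the tRNA, counted from its mature 5′ end. The anticodon lies at bases 34 to 36. The upper limit follows from the length rule, since a cut-tail form of this sequence that begins after base 38 is under 37 nt. At base 37 the form lacking CCA is too short to be a member, and at base 38 only the form lacking A is long enough. Code EH62 began at base 37, the base after the anticodon, and had the most counts. Codes 2VR0, 8HM2 and S5QK began at the anticodon bases 36, 35 and 34, and 96L8 and NMEH at bases 33 and 32. The most abundant member of EH62, tRF-37-EH623K7SIR3DR2M (4993 counts, in 39 libraries), was also the most abundant of all members with a cut tail and of all that hold the T-loop.

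Mitochondrial Met-CAT, the largest code, ranged widely between libraries. The sum of code 1OR6 at month 0 was 7.82 scaled CPM in PA8001, 81.6 at the median and 672 in PA8835. At month 15 it was 24.9 in PA8872, 222 at the median and 844 in PA8001. The ranges overlapped, and PA8001 at month 15 was the only library above every month 0 library. Mitochondrial tRNAs gave 68.8% of member counts in PA8835 at month 0, against 30.2% in the next library of that month. The leading members of the group were 50, 47, 49 and 40 nt long, so they shared no single end.

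In PA8001 at month 15 this group had another sequence. Counted from its first base, the most abundant member of at least 70 nt, tRF-70-1OR6QOH04MR1J5KUB4Z3V5393L41 (573 counts), differed from the printed 50-nt fragment by C17T. Members of code 1OR6 with T at position 17 held 1659 counts, of which 1540 were in that library and 96 in PA8914 at month 15, while 15004 counts over 40 libraries had C. The same library held 416 of 434 counts of mitochondrial Glu-TTC and 103 of 113 of mitochondrial Asn-GTT, and 15 and 10 of the rest were in PA8914 at month 15. It also held 714 members (1361 counts, 22.2% of its member counts) that occurred in no other library. What these fragments derive from was not tested, and counts of calls at month 15 are also given without animal PA8001 and without the month 15 draws of PA8001 and PA8003 together.

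The share of a library's counts in members did not change past the test at any month. It was 0.0710% ± 0.0632 (SD, n = 8) at month 0, 0.0635% ± 0.0363 at month 3, 0.0509% ± 0.0163 at month 6, 0.0456% ± 0.0244 at month 9 and 0.138% ± 0.101 at month 15. The month 15 libraries ran from 0.0379% (PA8912) over a median of 0.102% to 0.321% (PA8001, 95% Wilson interval 0.313% to 0.329%), and month 0 from 0.0145% (PA8914) to 0.211% (PA8872, interval 0.205% to 0.216%). PA8001 and PA8873 were the 2 high libraries at month 15, and the other 6 lay within the month 0 range. The share was higher than month 0 in 5 of 8 animals at month 15, with a mean difference of 0.0667 percentage points (exact two-sided sign-flip test, p = 0.242, adjusted over 12 tests 0.771).

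**Figure D3:**
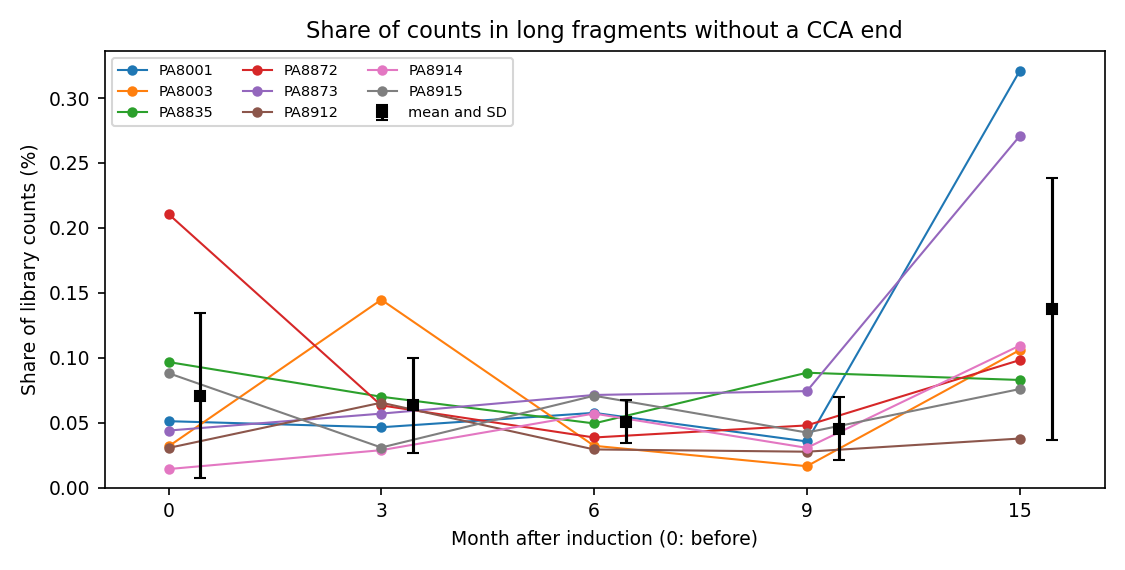
Share of each library's counts in members, in percent (vertical axis), by month (horizontal axis, evenly spaced categories). Lines join the 5 draws of each of 8 animals, and black squares with bars give mean and SD. PA8001 (0.321%) and PA8873 (0.271%) stand above the rest at month 15, and PA8872 (0.211%) at month 0.

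The log2 ratio of members to CCA-ending fragments of the same lengths was 1.09 ± 1.07 at month 0, 0.15 ± 0.74 at month 9 and 0.78 ± 0.50 at month 15 (SD, n = 8). Its smallest p was at month 9 (mean difference -0.94, lower in 7 of 8 animals, exact sign-flip p = 0.0703, adjusted 0.771). The mean length of members, 45.8 nt ± 2.58 at month 0 and 46.4 nt ± 1.58 at month 15, differed by 0.547 nt (exact sign-flip p = 0.531, adjusted 0.771). None of the 12 tests passed.

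Single members were tested with edgeR over all fragments. Only 46 of 5890 members had enough counts to be tested among 2447 fragments. Many of the 46 are length or start variants of 1 tRNA and are not independent. A member can enter this set by being high in 1 month alone, so the counts describe the set only. At months 3, 6 and 9 against month 0, 0 members passed an adjusted p under 0.05, against 0% of all fragments tested. At unadjusted p under 0.05 there were 8, 11 and 11 members, beside 73, 310 and 201 of all 2447 fragments. DESeq2 called 0, 1 and 0, and limma-voom 0 at each. The median log2 change of the 46 was 0.19, -0.09 and -0.45, beside 0.10, 0.01 and 0.06 over all fragments.

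The smallest p at the early months belonged to Lys, Val, Asp and mitochondrial Met fragments. At month 3 these were tRF-56-PSQP4PW3FJIKE7UMKKSWRND (log2 change 1.42), tRF-42-96L85DMKYUYRLHR0J (1.79) and tRF-37-79MP9P9NH57S362 (2.60), each with an edgeR adjusted p of 0.999. At month 6, tRF-41-1OR6QO004MR1J5KUB (-2.71), tRF-42-1OR6QO004MR1J5KUF (-2.73) and tRF-56-PSQP4PW3FJI0E7UM8KSWRND (1.48) each had 0.303. At month 9, the same pair of mitochondrial fragments (-2.12 and -2.10) and tRF-54-79MP9P9NH57S3U2VO0SR1Z (-1.86) each had 0.582. All 9 mitochondrial Met members tested had a negative log2 change at each of these months, with medians of -0.89, -1.58 and -1.71. None passed. They are length variants of code 1OR6 and are not independent. The sum of that code was higher in 4 animals and lower in 4 at months 3 and 9. At month 6 it was higher in 3 animals and lower in 5. At month 0 it was 672 scaled CPM in PA8835, against a median of 81.6. The comparisons of months 3, 6 and 9 share the month 0 libraries.

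At month 15, 10 of the 46 members were higher than at month 0 and 0 were lower (edgeR adjusted p under 0.05), where 2.21% of all fragments tested were called higher. The median log2 change was 0.98 in the 46 and 0.05 over all fragments, and 36 of 46 had a positive sign. Of the 10, 7 were Asp-GTC 3′ side fragments, 2 were Lys-CTT and 1 was Val-AAC. This count rests on few animals: it was 0 without PA8914, 2 without PA8003 or PA8873, 4 without PA8001 or PA8912, 6 without PA8835, and 4 when PA8001 lost its month 0 library only. With the month 15 draws of PA8001 and PA8003 left out it was 0. It was also 0 when only the draws of months 0 and 15 were fitted and 5 without the animal block, and 4 in limma-voom and 12 in DESeq2. The share of all fragments called in each refit is not given here, so these counts describe the members only. All 10 kept a positive change in all of the 159 refits that gave a value.

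**Figure D4:**
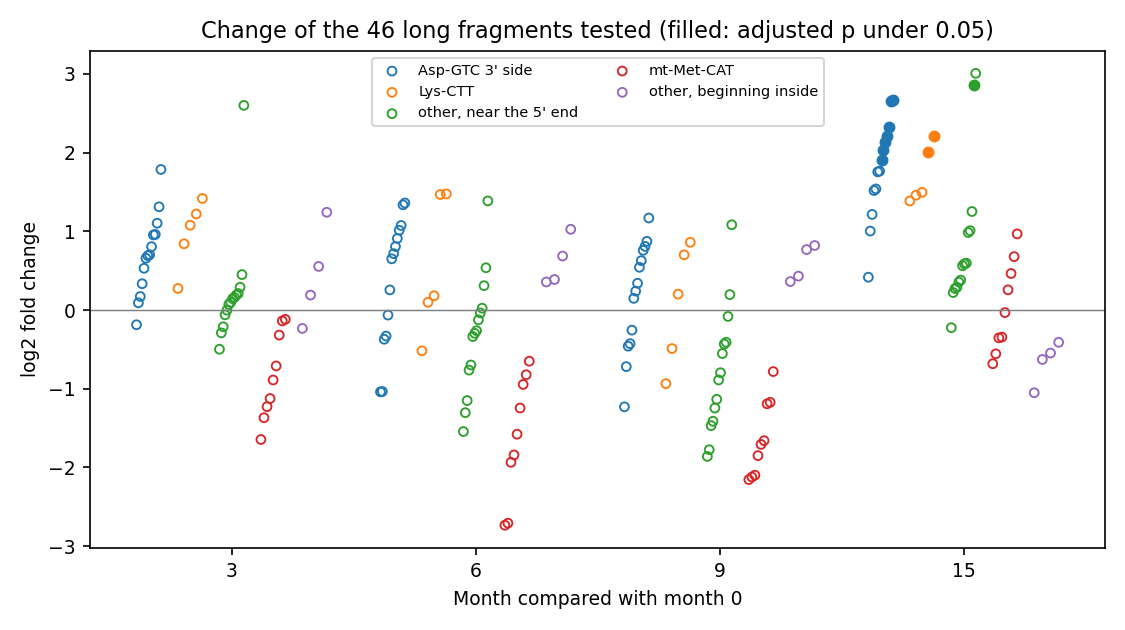
log2 fold change against month 0 (vertical axis) of the 46 members tested, at months 3, 6, 9 and 15 (horizontal axis). Each circle is a member, coloured by parent tRNA and place and spread sideways by rank, and filled circles have an edgeR adjusted p under 0.05. Filled circles occur at month 15 only: 7 Asp-GTC 3′ side, 2 Lys-CTT and 1 other 5′ fragment.

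The 7 called Asp-GTC members all had a cut tail, as did 12 tested Asp-GTC members in all. The rule leaves out whole-CCA forms, so a member that reaches the 3′ end must have one. All 14 tested members of this tRNA that begin inside had a positive log2 change at month 15, from 0.42 to 2.67. tRF-38-2VR008R959KUMK9, printed above, was 0 in PA8001, 1.81 at the median and 7.41 scaled CPM in PA8872 at month 0. At month 15 it was 0.611 in PA8915, 23.0 at the median and 40.5 in PA8873. All month 15 libraries except those of PA8912 and PA8915 lay above every month 0 library. Its log2 change was 2.67 ± 0.54 (SE, edgeR adjusted p = 0.0204, higher in 7 of 8 animals), and it was called in 14 of 18 fits, the one reported included, the most among the 7 Asp-GTC members.

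The longer form, tRF-39-2VR008R959KUMKEV, ran from 0 over 4.45 to 11.1 scaled CPM at month 0 and from 1.22 over 20.7 to 32.3 at month 15. Its log2 change was 2.21 ± 0.53 (SE, edgeR adjusted p = 0.0355, higher in 7 of 8 animals). tRF-40-8HM2OSRNLNKSEK51, which begins 1 base earlier, ran from 0 over 3.04 to 22.2 at month 0 and from 6.06 over 23.3 to 34.4 at month 15. It was higher in 8 of 8 animals (log2 change 1.90 ± 0.48 SE, edgeR adjusted p = 0.0368), and 5 month 15 libraries lay above every month 0 library. PA8912 and PA8915 were within the month 0 range for both fragments, and PA8914 for the second.

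The other 4 called Asp-GTC members were less abundant. tRF-39-8HM2OSRNLNKSEKH9, tRF-38-8HM2OSRNLNKSEKDS and tRF-37-2VR008R959KUMKH changed by 2.03, 2.32 and 2.13 on the log2 scale, with month 15 medians of 13.2, 6.49 and 6.97 scaled CPM. They were called in 5 of 18, 6 of 17 and 4 of 16 fits, and the tRF-39-2VR008R959KUMKEV and tRF-40-8HM2OSRNLNKSEK51 fragments in 8 of 18 and 6 of 18. tRF-42-96L85DMKYUYRLHR0J, called in 10 of 14, changed by 2.66 and was higher in 6 of 8 animals, from a month 0 median of 0.497 to 3.20 scaled CPM.

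The sums over codes divided the Asp-GTC 3′ side by start position. Summed over each code, the edgeR test at month 15 called 8 of 34 group sums higher and 0 lower, where 1.85% of all sums and fragments in that test were called higher. At months 3, 6 and 9 it called 0 group sums (0% of all sums and fragments), with 6, 7 and 3 at unadjusted p under 0.05. How many of all sums and fragments passed that unadjusted cut was not counted. The 8 were Asp-GTC codes 2VR0, 8HM2, S5QK, 96L8 and NMEH and Lys-CTT codes PSQP, 3JVI and MIF9. The 5 Asp-GTC codes are all those that begin at bases 32 to 36, and their log2 changes were 1.99 (NMEH, base 32), 2.54 (96L8, base 33), 2.24 (S5QK, base 34), 2.01 (8HM2, base 35) and 2.45 (2VR0, base 36). The SE of these was 0.45 to 0.58. The count of 8 was 0 without PA8914, 3 without PA8873 and 5 without PA8001.

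Code EH62, 1 base further at base 37, did not pass. Its sum ran from 0 over 34.9 to 84.9 scaled CPM at month 0 and from 23.8 over 49.1 to 142 at month 15, so most of the libraries overlapped. Its log2 change was 0.68 ± 0.52 (SE, edgeR adjusted p = 0.445, higher in 5 of 8 animals). The sums at bases 28 to 31 and 38 did not pass either, with log2 changes of 1.29 to 2.13, of which that at base 29 (2.13) lay within the range of those called. The difference between EH62 and the other codes was not tested. The length rule also admits fewer cut forms at bases 37 and 38 than at lower bases. Among fragments outside the members, the form of the EH62 piece with the whole CCA, tRF-39-EH623K7SIR3DR2I2 (1612 counts), was higher at month 15 (log2 change 2.14, edgeR adjusted p = 0.0204). The whole-CCA forms at bases 31, 32, 33, 34 and 36 were also higher, by 1.54, 1.37, 1.42, 1.17 and 1.34, with adjusted p from 0.0355 to 0.0496. The form at base 35 had 1.48 (edgeR adjusted p = 0.0683) and did not pass. Those at bases 28, 29, 30 and 38 did not pass either. Their log2 changes were 1.18, 1.01, 1.44 and 1.08, with edgeR adjusted p from 0.0969 to 0.207. No refit without an animal is given for the whole-CCA forms.

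**Figure D5:**
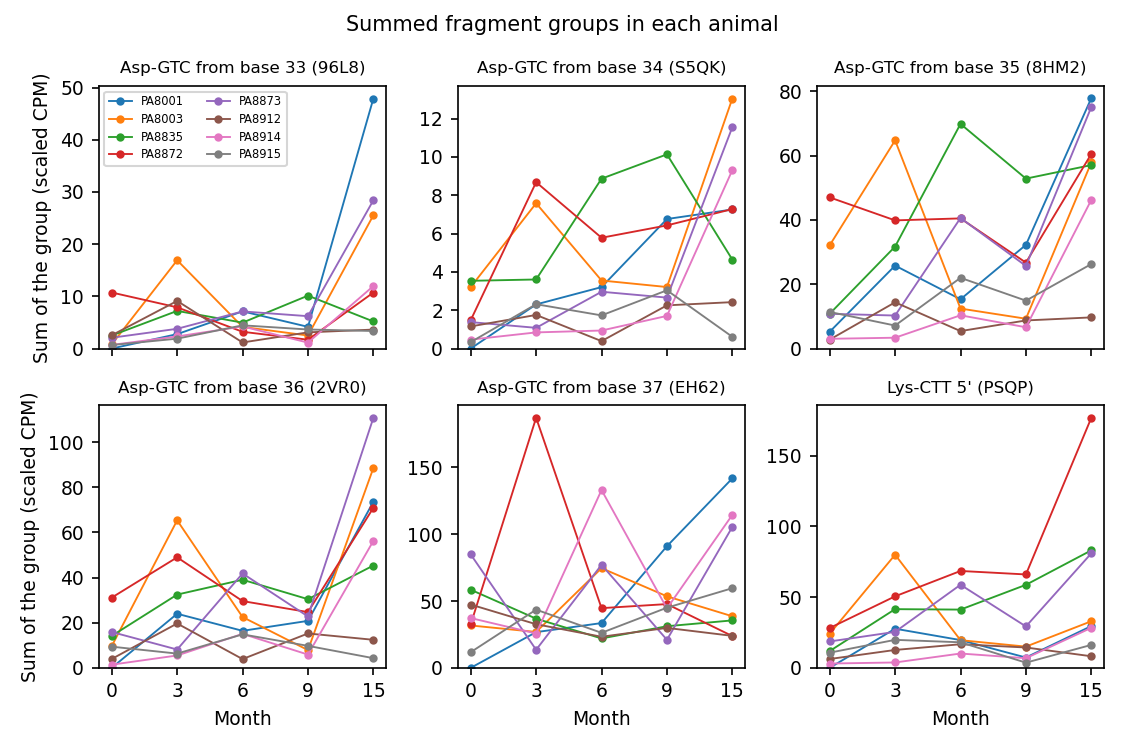
Summed scaled CPM of 5 Asp-GTC codes that begin at bases 33 to 37 and of Lys-CTT code PSQP (vertical axes, each from 0 on its own scale), by month (horizontal axis, evenly spaced categories), with 1 line for each of 8 animals. For 2VR0 and PSQP, 6 of 8 month 15 values lie above every month 0 value; for EH62, 3 of 8 do.

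The other 3 called members were 2 of the 5 Lys-CTT members tested and 1 Val-AAC fragment. They are printed with the anticodon in capitals.
tRF-56-PSQP4PW3FJI0E7UM8KSWRND: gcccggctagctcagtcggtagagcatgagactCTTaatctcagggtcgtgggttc
tRF-40-3JVIJMRPFQRDWXHR: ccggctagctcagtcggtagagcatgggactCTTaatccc
tRF-42-79MP9P9NH57S3U2VL: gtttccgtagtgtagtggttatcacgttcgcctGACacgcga

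The first differs from the more abundant 56-nt Lys-CTT fragment by G29A and C41T, counted from the first base, and the 2 positions pair in the anticodon stem. It ran from 0 over 1.37 to 7.78 scaled CPM at month 0 and from 0.606 over 5.73 to 45.99 at month 15, highest in PA8872. It was higher in 8 of 8 animals (log2 change 2.21 ± 0.47 SE, edgeR adjusted p = 0.0204), and 3 month 15 libraries lay above every month 0 library. Among the 8, PA8001 had 0 counts at month 0, and its month 15 value lay under its month 0 floor of 7.82 scaled CPM. The more abundant form, tRF-56-PSQP4PW3FJIKE7UMKKSWRND, had a log2 change of 1.495 ± 0.48 (SE) and did not pass (adjusted p = 0.0941, higher in 5 of 8 animals). All 5 Lys-CTT members tested had a positive change, from 1.39 to 2.21.

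tRF-40-3JVIJMRPFQRDWXHR begins at base 3 of the same tRNA and ends at base 42, in the anticodon stem. It ran from 0 over 4.84 to 11.3 scaled CPM at month 0 and from 1.53 over 14.8 to 49.6 at month 15 (log2 change 2.01 ± 0.54 SE, edgeR adjusted p = 0.0404, higher in 6 of 8 animals). PA8835, PA8872 and PA8912 stayed within the month 0 range. Code MIF9 holds the next start, base 4, and its leading member also ends at base 42. Its sum was called as well (log2 change 2.98 ± 0.59 SE, adjusted p = 0.0120, 8 of 8 animals) at low levels, with a month 15 median of 5.31 scaled CPM. Among the 8, PA8001 had a sum of 0 at month 0, where the floor was 7.82.

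tRF-42-79MP9P9NH57S3U2VL of Val-AAC also ended 12 bases before the T-loop. It ran from 0 over 0.921 to 5.02 scaled CPM at month 0 and from 2.18 over 4.32 to 63.6 at month 15, where PA8873 was far above the next library (13.1). Its log2 change was 2.86 ± 0.77 (SE, edgeR adjusted p = 0.0404, higher in 7 of 8 animals), and it was called in 4 of 15 fits.

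The 5′ fragments that end at the T-loop did not pass at month 15 against month 0. Of 501 such members 7 were tested, all 7 with a positive log2 change of 0.27 to 1.25. The most abundant member of all, tRF-52-Q1Q89P9L8422YRI7XUK8N of Gly-CCC (62.7 ± 65.1 scaled CPM over 40 libraries), ran from 8.15 over 37.9 to 309 scaled CPM at month 0 and from 26.3 over 47.1 to 268 at month 15. It was higher in 4 of 8 animals (log2 change 0.27 ± 0.62 SE, edgeR adjusted p = 0.811). tRF-52-PNR8YP9LON4VN1EH6KK8N of Gly-GCC had its highest value, 260, in PA8003 at month 15, against 52.01 in the next library of that month and 94.4 in PA8872 at month 0 (log2 change 0.98 ± 0.76 SE, adjusted p = 0.448). Its variant tRF-52-P4R8YP9LON4VN1EH6KK8N, which differs by T5G, had 157 in the same library (log2 change 1.25, adjusted p = 0.357).

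Mitochondrial Met members did not pass either. tRF-50-1OR6QO004MR1J5KUB4Z3 ran from 0 over 17.98 to 131 scaled CPM at month 0 and from 5.36 over 37.7 to 155 at month 15 (log2 change 0.97 ± 0.75 SE, edgeR adjusted p = 0.452). The 49-nt and 47-nt forms, tRF-49-1OR6QO004MR1J5KUB4K4 and tRF-47-1OR6QO004MR1J5KUB4Q, had log2 changes of 0.68 and 0.26, and the 40-nt form, tRF-40-1OR6QO004MR1J5KU, had -0.34. The Asp-GTC and Val-TAC pieces among the 10 most abundant members, tRF-37-EH623K7SIR3DR2M and tRF-37-LPD3387SFRJ4O11, had 0.42 (adjusted p = 0.659) and -0.41 (adjusted p = 0.592).

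Month 15 was also compared with the middle months. Against month 3, 2 members were higher and 1 lower (7.19% and 3.92% of all fragments tested). Against month 6, 11 were higher and 1 lower (17.0% and 9.52%). Against month 9, 22 were higher and 2 lower (18.2% and 12.4%). All 3 counts, over both directions, were 0 with the month 15 draws of PA8001 and PA8003 left out. The count against month 3 was also 0 without PA8003, PA8873, PA8914 or PA8915, 2 without PA8001 and 5 without PA8835. Against month 6 it was 5 without PA8001, 4 without PA8003 or PA8873 and 7 without PA8914. Against month 9 it was 10 without PA8001, 5 without PA8003 and 11 without PA8873. These comparisons share the month 15 libraries. Of 26 members called against any month, 2 were called against all 4, tRF-40-3JVIJMRPFQRDWXHR and tRF-42-79MP9P9NH57S3U2VL. How many of all fragments tested were called against any month, or against all 4, was not counted.

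Several members passed against month 9 and not against month 0, which does not show that they were level with month 0. The 50-nt mitochondrial Met fragment was 9.08 scaled CPM at the month 9 median and 37.7 at month 15 (log2 change 2.63, edgeR adjusted p = 0.0121). The Val fragments tRF-54-79MP9P9NH57S3U2VO0SR1Z and tRF-54-79MP9PMNH57S362VO0SR1Z, with medians of 2.55 and 2.95 at month 9 and 11.3 and 9.30 at month 15, changed by 2.15 and 1.82 (adjusted p = 0.0202 and 0.0183). tRF-37-PS5U8918W8RV1I5 of Sec-TCA changed by 1.81 (adjusted p = 0.0226), with its highest month 15 value, 52.8, in PA8001. The Lys-CTT fragment tRF-40-S8V0J8O9YEKPRS93 changed by 2.39 (adjusted p = 0.0202).

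The members that were lower at month 15 both began inside a tRNA. tRF-37-RV50SRRN2EK8E0J, whose parent was not read, had medians of 1.47, 3.22, 2.75, 2.44 and 0.983 scaled CPM at months 0, 3, 6, 9 and 15. It was lower than at months 3, 6 and 9 (log2 changes -1.79, -1.57 and -1.31, edgeR adjusted p = 0.0296, 0.0193 and 0.0489) and had -0.55 against month 0 (adjusted p = 0.539). tRF-38-EFOK8YR951K36DD1 of Val-TAC was lower than at month 9 (-1.87, adjusted p = 0.0183). Its month 9 values of 38.5 in PA8001 and 22.5 in PA8003 stood above the month 15 range of 0.482 to 4.59.

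Over the lists by place, the calls at month 15 against month 0 were as follows, where 2.21% of all fragments tested were called higher. Of 2687 members that begin near the 5′ end 26 were tested and 3 were called higher, with a median log2 change of 0.51. Of 945 members with a cut tail 14 were tested and 7 were called higher, with a median of 1.83. Of 2353 members that hold the T-loop 18 were tested and 7 were called higher, with a median of 1.65. The 7 in both of the latter lists are the same Asp-GTC members, and none of these calls, nor those near the 5′ end, was made without PA8914. By code, 79MP had 1 of 5 tested members called higher, PSQP 1 of 2, 96L8 1 of 1, Q1Q8 0 of 3 and P4R8 0 of 1. Codes 87R8, 86J8, FPR8 and S5QK had no member tested, and the other codes had 7 of 34 called higher. No list had a member called lower.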

How the data were processed

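Serum tRNA fragments of 8 baboons at 5 draws were sequenced after adapter ligation to both ends and molecular identifier assignment, per the labels' protocols. The deposited table holds counts per fragment sequence and library, whole numbers with no scaling, and a second deposited table gives the sequences. Aligner, tRNA reference, mismatches allowed and identifier collapse (all not given in the sources used here) leave the link from counts to molecules unknown, so intervals and the floor of 3 counts cover counting error only. R 4.5.0, edgeR and limma are named in the submitters' processing notes, with no role. Of 60201 lines, 1614 without an ID held an unread base (0.0805% of counts) and were left out.

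The test was that of edgeR 4.0.16 under R 4.3.3 (filterByExpr with a minimum count of 10, TMM, robust quasi-likelihood fit to all 40 libraries, animal as block, Benjamini-Hochberg over 2447 fragments, threshold 0.05). Labels tie libraries to animals, and same-animal libraries correlated at 0.174 against -0.0233 for others. For sums, members of a code were replaced by their sum. Library measures used exact sign-flip tests, and with no block an exact permutation test of the difference in means. DESeq2 1.42.0 and limma 3.58.1 were alternatives. Each animal gave 1 library a month, so the spread is that between animals.

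Parents were read as an anticodon loop at base 31 to 37 behind at least 50 counts; inside fragments took the parent whose 5′ members hold their first 15 bases. Members, lists and tests were chosen with earlier results of these data known. Named were the 8 largest codes, the 10 most abundant members, per comparison up to 8 passing members per direction moving 1 way in 7 or more of 8 animals (or the 3 smallest p where fewer than 3 passed), the most abundant of at least 70 nt, the longest, and the most abundant of each place list. The remaining called members at month 15 and the start positions were added after their values were seen. Fits and tests were checked on simulated data without animal differences or outlying libraries, so their error rates in these data were not measured.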

Additional observations from a re-analysis of the deposited data

Results flagged for a closer look

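Single libraries stood far from the other 7 of their month in 12 of 55 sets checked (3 library measures and the sums of the 8 largest codes, each at 5 months). By chance about 1 set in 20 would be, if values were normally distributed and sets independent. The code sums are part of the share, so the sets overlap, and the distribution was not checked. In each of the 12 sets the library was the highest. For the share of counts these were PA8872 at month 0 (0.211%) and PA8003 at month 3 (0.145%). For Gly-CCC (Q1Q8) the same libraries had 399.9 and 286 scaled CPM. For Val (79MP), PA8915 had 105 at month 6 and PA8873 had 359 at month 15. For Asp-GTC (EH62), PA8872 had 187 at month 3 and PA8001 had 91.0 at month 9. For Lys-CTT (PSQP), PA8872 had 177 at month 15. For Gly-GCC (PNR8), PA8872 had 110.0 at month 0, PA8915 had 58.8 at month 6 and PA8003 had 305 at month 15.

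The lines without an ID, which no comparison uses, include long ones that do not end in CCA and hold 80 counts in all.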

How the results depend on the processing

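At month 15 against month 0, the 10 members called became 3 with library totals alone, 4 in limma-voom, 6 at a minimum count of 30, 5 with no replicate block, 0 in a fit of those 2 months only, 4 without the month 0 library of PA8001 and 0 without the month 15 draws of PA8001 and PA8003. Leaving out 1 animal gave 0 to 9. Of 159 alternative values of the 10 members all were positive, 66 passed and 0 passed without PA8914. Against month 3, the 3 calls became 7 in DESeq2, 0 with library totals alone, 1 at a minimum count of 30, 17 with no filter, 0 in the 2 months only and 0 without the 2 month 15 draws (0 to 5 without 1 animal). Against month 6, 12 calls became 21 in DESeq2, 6 in limma-voom, 3 at a minimum count of 30, 23 with no filter, 6 in the 2 months only and 0 without the 2 draws (4 to 17). Against month 9, 24 calls became 7 in limma-voom, 14 at a minimum count of 30, 5 in the 2 months only and 0 without the 2 draws (5 to 26). At month 6 DESeq2 called 1 member and the fit with no filter 2, and at month 9 the latter called 1. The 8 group sums at month 15 became 3 with library totals alone, 4 in limma-voom, 0 in the 2 months only and 0 without the 2 draws (0 to 11), and DESeq2 called 1 at month 6.

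None of 144 alternatives of the library measures passed (smallest adjusted p 0.188, exact sign-flip test), and 14 changed sign. Those with no replicate block used an exact permutation test of the difference in means between months, and none of them passed. Mean length differed from month 0 by 0.199 nt at month 3, 0.583 at month 6 and 0.499 at month 9 without PA8001 and PA8003, and by 0.019 at month 3 without fragments of a total count under 10. Without 1 animal it ran from -0.56 to 0.48, -0.65 to 0.26 and -1.75 to 0.087. Likewise the share ran from -0.0248 to 0.0124 at month 3 and -0.0291 to 0.0016 at month 6, and the log2 ratio from -0.43 to 0.053 at month 3.

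Among members not called, tRF-40-1OR6QO004MR1J5KU turned to 0.018 in limma-voom and 0.37 in the 2 months only (-1.16 to 0.57 without 1 animal). tRF-47-1OR6QO004MR1J5KUB4Q turned to -0.070 with no filter, -0.043 with no replicate block and -0.26 without the 2 draws (-0.31 to 1.24). tRF-52-PNR8YP9LON4VN1EH6KK8N turned to -0.21 without the 2 draws, and tRF-52-Q1Q89P9L8422YRI7XUK8N to -0.033 with library totals alone (-0.084 to 0.91). The cause of these changes was not tested. Depth limits the tests to 46 members, and 1 library held 102 member counts.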

Other observations

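The longest members, at 89 nt, were mostly not tRNA-like. Of 9 members of that length, 8 had 1 base, T, in at least 80% of the read. They held 18 counts in 8 libraries, 6 of them in tRF-89-K7ZZZZZZZZZZZZZZZZZZZZZZZZZZZZZZZZKQ in PA8001 at month 0, and no shorter member was of this kind. The other, tRF-89-PS5U8918W8RV1I8B3WFYWPLF5476IR0ZWK1V (4 counts in 4 libraries), is a Sec-TCA read.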
